A study of Homo sapiens with 40 samples.

Results

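Sprouty, SPRED, ERRFI1 and LRIG1 proteins form the negative feedback arm of receptor tyrosine kinase signalling, and the open chromatin around their 8 genes (SPRY1, SPRY2, SPRY4, SPRED1, SPRED2, SPRED3, ERRFI1 and LRIG1) was followed here by ATAC-seq, which maps DNA that a transposase can reach. Peaks of all 40 libraries that overlapped by at least 1 bp were merged, and regions listed in at least 2 libraries were kept. A region belonged to a gene when its midpoint lay in the gene body or within 50 kb of either end (GENCODE v44 on GRCh38). This gave 67 of 71600 regions: 2 for SPRY1, 2 for SPRY2, 8 for SPRY4, 3 for SPRED1, 28 for SPRED2, 6 for SPRED3, 10 for ERRFI1 and 8 for LRIG1. Of the 67, 32 had a peak in all 40 libraries. SPRED2 and LRIG1 are of similar length (121.8 and 122.5 kb) and hold 28 and 8 regions, while SPRY2 spans 5.2 kb.

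The cells were BT474, an established HER2-positive luminal breast cancer line, and BT474R, a trastuzumab-resistant derivative described as a clone kept under the antibody, so the resistant cells stand for 1 clone. Both lines were starved of serum and then given EGF, which binds EGFR, HRG (heregulin), which binds HER3 and HER4, or water as the control. Libraries were made at 1, 12 and 24 h of each arm and at a 0 h baseline, with 2 libraries in each of the 20 groups of line, arm and time. The 2 ligands of a line share the same control libraries, so their effects are not independent of each other.

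Lists of BT474 held 47571 to 56846 peaks (median 51357) and those of BT474R 32479 to 56494 (median 46641). BT474R lists at 12 h were among the shortest, with 32479 and 40331 peaks in the controls, 37476 and 38205 with EGF and 42604 and 45808 with HRG. Of 10 luminal marker genes, 9 had a promoter peak in all 40 libraries and TFAP2B in none. Of 7 basal or mesenchymal genes 2 had one in all 40 (VIM and COL1A1) and 2 in none, and of 6 immune or endothelial genes 1 (CDH5) had one in all 40 while PTPRC, CD3E and PECAM1 had none. Peak lists from bulk chromatin cannot tell a larger share of open cells from wider opening in each cell.

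As background, ligand-bound ERBB receptors activate RAS, RAF, MEK and ERK, and ERK in turn raises the transcription of its own inhibitors. Sprouty proteins (SPRY1, SPRY2, SPRY4) act on the route from the receptor to RAF, and SPRED proteins bring the RAS-inactivating protein neurofibromin (NF1) to the membrane. ERRFI1, also called MIG6, binds the kinase domain of ERBB receptors and blocks it, and LRIG1 is a membrane protein that binds ERBB receptors and promotes their removal. AP-1, a dimer of FOS and JUN proteins, and ETS factors are transcription factors long tied to ERK signalling.

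Each region is named by its gene and by the distance in kb from the 5′ end of the gene to the region's midpoint, with a plus sign into the gene and a minus sign upstream. The 8 regions below are a selection from those described further on and do not stand for all called regions. Each is shown from 100 bp before to 100 bp after its mean summit on the plus strand of hg38. Capitals mark matches to the AP-1 letters TGANTCA, the CRE letters TGACGTCA or the ETS letters CCGGAA, read on either strand. SPRED2 +65.9 (window chr2:65366645-65366845), SPRED2 +54.8 (chr2:65377766-65377966), SPRED2 +49.6 (chr2:65382855-65383055) and LRIG1 +25.5 (chr3:66475615-66475815) lie in introns. ERRFI1 +21.2 (chr1:8004849-8005049) lies in an intron of 1 of the 5 annotated ERRFI1 transcripts. ERRFI1 -14.4 (chr1:8040652-8040852), SPRY4 -15.8 (chr5:142342338-142342538) and SPRED1 -35.6 (chr15:38216900-38217100) lie upstream of their genes.
SPRED2 +65.9: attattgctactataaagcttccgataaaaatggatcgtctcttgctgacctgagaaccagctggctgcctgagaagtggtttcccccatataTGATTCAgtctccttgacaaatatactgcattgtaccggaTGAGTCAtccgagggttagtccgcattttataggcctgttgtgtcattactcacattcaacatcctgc
SPRED2 +54.8: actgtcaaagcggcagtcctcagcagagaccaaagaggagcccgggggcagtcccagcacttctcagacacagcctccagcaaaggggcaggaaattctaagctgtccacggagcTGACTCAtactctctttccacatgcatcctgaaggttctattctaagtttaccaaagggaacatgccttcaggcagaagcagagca
SPRED2 +49.6: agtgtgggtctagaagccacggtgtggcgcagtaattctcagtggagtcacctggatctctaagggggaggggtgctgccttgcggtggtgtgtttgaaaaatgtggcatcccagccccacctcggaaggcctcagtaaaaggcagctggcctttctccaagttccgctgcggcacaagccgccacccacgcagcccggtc
ERRFI1 +21.2: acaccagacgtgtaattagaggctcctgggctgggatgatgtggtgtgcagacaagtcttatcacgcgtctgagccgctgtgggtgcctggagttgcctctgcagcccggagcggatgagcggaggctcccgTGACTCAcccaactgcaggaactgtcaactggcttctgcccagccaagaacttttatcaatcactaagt
ERRFI1 -14.4: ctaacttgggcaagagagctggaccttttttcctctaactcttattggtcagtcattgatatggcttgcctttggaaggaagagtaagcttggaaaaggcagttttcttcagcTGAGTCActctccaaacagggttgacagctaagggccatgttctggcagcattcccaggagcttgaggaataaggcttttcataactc
SPRY4 -15.8: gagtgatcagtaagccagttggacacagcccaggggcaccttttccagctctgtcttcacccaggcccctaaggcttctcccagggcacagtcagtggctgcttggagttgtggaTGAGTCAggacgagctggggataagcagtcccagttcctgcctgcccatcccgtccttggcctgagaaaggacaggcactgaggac
SPRED1 -35.6: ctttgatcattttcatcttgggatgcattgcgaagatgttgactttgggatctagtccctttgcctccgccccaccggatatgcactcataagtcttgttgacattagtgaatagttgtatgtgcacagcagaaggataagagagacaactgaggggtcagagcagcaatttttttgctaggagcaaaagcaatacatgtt
LRIG1 +25.5: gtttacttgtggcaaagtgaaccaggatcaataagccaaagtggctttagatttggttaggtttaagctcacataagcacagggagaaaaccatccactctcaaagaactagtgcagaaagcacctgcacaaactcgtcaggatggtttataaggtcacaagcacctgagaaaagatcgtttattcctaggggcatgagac
AP-1 letters occur in SPRED2 +65.9 and +54.8, in both ERRFI1 regions and in SPRY4 -15.8, and no searched match falls in the other 3 windows.

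Over all 67 regions, AP-1 letters occurred in 14 (20.9%), against 16.2% of all 71600 regions and 19.4% of those away from a coding gene's start. Among the 19 regions that rank or presence placed higher after a ligand in either line (values below), 7 held AP-1 letters (36.8%), against 7 of the other 48 (14.6%). This is a description of letters in a window, and no such share was taken over all regions that a ligand raised. The other 48 include regions that could not be tested by rank and regions at gene starts. Of all regions at a coding gene's start, 6.67% held AP-1 letters. ETS letters CCGGAA occurred in 4 regions (5.97%, against 6.91% of all), of which 1 held the longer CCGGAAGT (1.49% against 1.38%). CRE letters occurred in 0 of 67 (0.638% of all) and the SRF CArG box in 0 (0.927%). Of the other motifs searched on both strands, SP/KLF letters GGGCGGGG occurred in 7 regions (10.4% against 7.60%) and EGR letters GCGNGGGCG in 3 (4.48% against 2.64%). FOX letters TGTTTAC occurred in 5 regions (7.46% against 8.54%). GATA letters AGATAA occurred in 3 regions (4.48% against 8.98%). The E-box CACGTG occurred in 3 regions (4.48% against 4.34%). TEAD letters GGAATGT occurred in 1 region (1.49% against 4.37%) and CTCF matches in 3 (4.48% against 6.50%). EGR and SP/KLF letters can overlap, and the long ETS form contains the short one.

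The authors' peak score adds up signal over the width of a peak and is not comparable between libraries. Each peak was therefore given its rank percentile, the percent of peaks in the same list with a score no higher, and a region took the percentile of its highest peak. Differences are in percentile points. They were tested with limma within each line over regions with a peak in all 20 libraries (36820 in BT474 and 28260 in BT474R), and adjusted p-values are Benjamini-Hochberg values over all of them. Of the 67 regions, 39 could be tested in BT474 and 37 in BT474R. A region is called at an adjusted p below 0.05.

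Over the 3 times in BT474, EGF raised 14 of the 39 regions and lowered 0 (35.9% called, against a background of 18.8% of all regions). HRG raised 12 and lowered 2 (35.9%, against 18.7%). Over all 36820 tested regions EGF raised 6483 and lowered 438, and HRG raised 4771 and lowered 2104. Of the 14 raised by EGF, 10 were at SPRED2, which held 15 of the 39. The others were 2 of 3 at SPRY4, 1 of 2 at SPRED1 and 1 of 6 at ERRFI1. EGF raised 0 of 5 at LRIG1, 0 of 4 at SPRED3 and 0 of 2 each at SPRY1 and SPRY2. HRG raised 8 at SPRED2, 2 at SPRY4 and 1 each at SPRED1 and ERRFI1. For EGF the excess over the background thus rested on SPRED2, and for HRG it rested mainly on SPRED2. This excess is not a trait of all 8 genes. The median difference of the 39 regions was 2.94 points for EGF and 1.95 for HRG, beside 0.878 and -0.199 over all regions. By time, EGF raised 4 at 1 h (background 2.92%), 6 at 12 h (8.23%) and 5 at 24 h, when it also lowered 1 (14.7%). HRG raised 4 and lowered 4 at 1 h (10.8%), raised 6 at 12 h (9.04%) and raised 9 at 24 h (12.0%). In all, 20 of the 39 regions were called in at least 1 ligand contrast, 14 of them higher and 6 lower. The share of all regions called in at least 1 contrast was not counted, so these 20 have no background beside them.

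**Figure D1:**
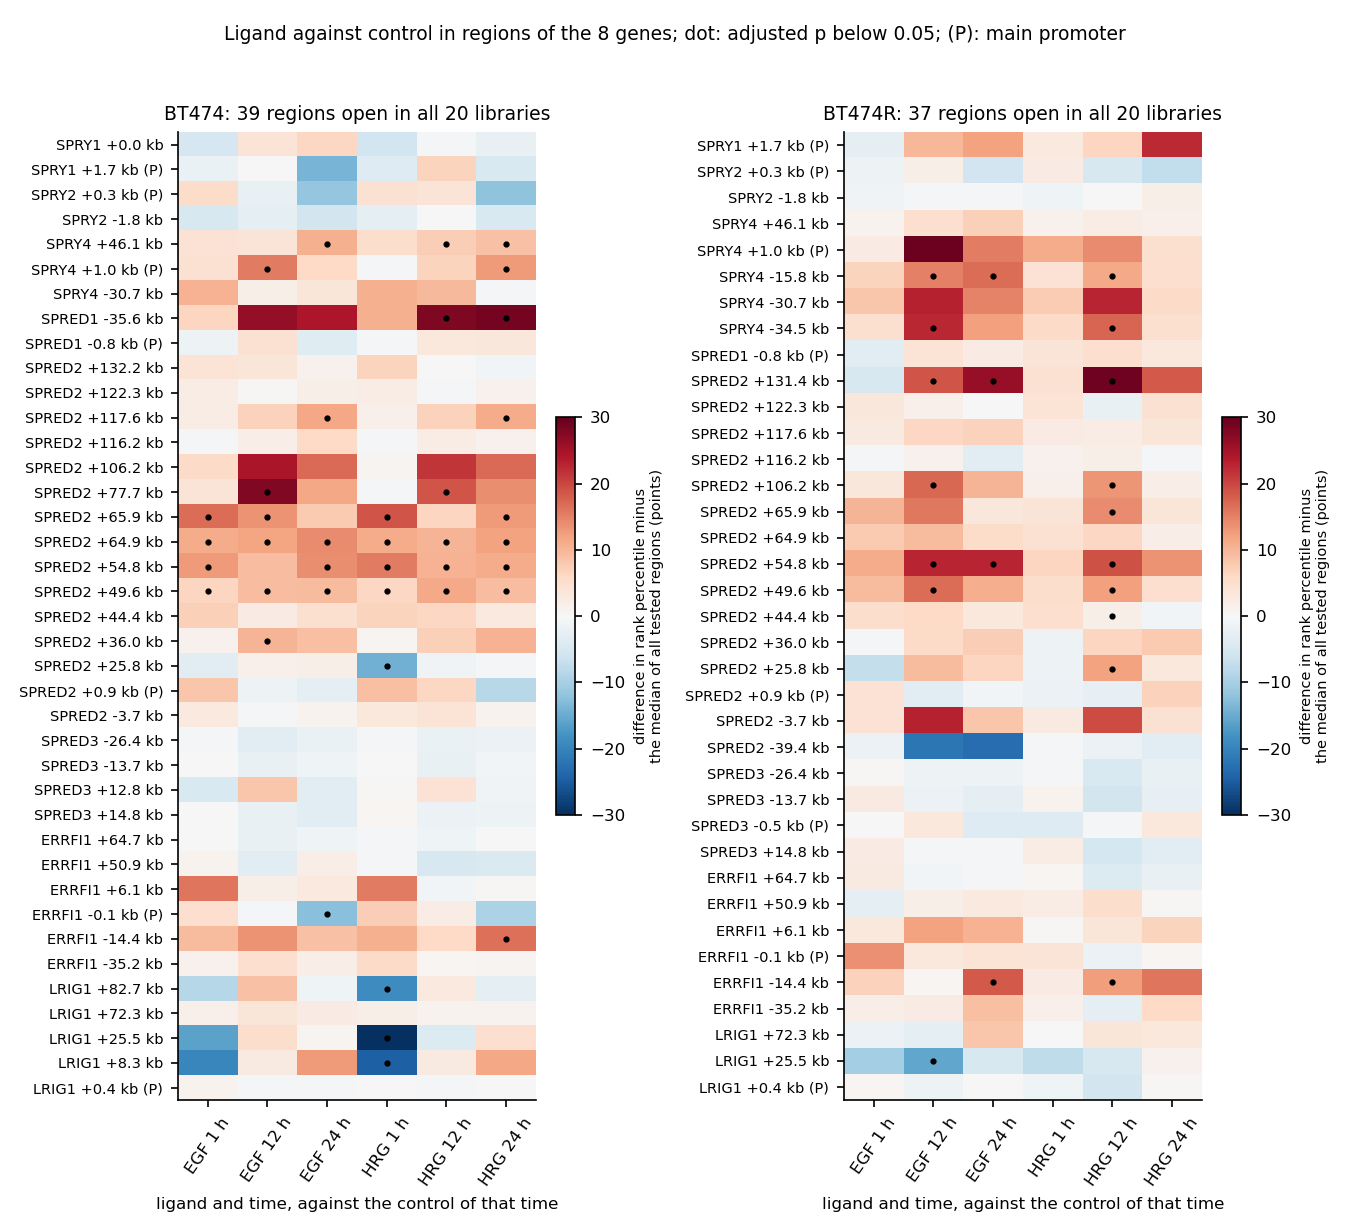
Difference between ligand and control of the same time, in percentile points after subtraction of the median over all regions, for the 39 regions testable in BT474 (left) and the 37 in BT474R (right). Each row is a region named by gene and distance in kb, each column a ligand and time, and a dot marks an adjusted p below 0.05. The row block of SPRED2 holds most of the dots in BT474.

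SPRED2 holds a run of regions inside its gene that ranked higher after both ligands. Away from the main promoter, 11 regions inside the SPRED2 gene could be tested in BT474, of which 9 rose with EGF over the times and 8 with HRG. The strongest call was +49.6 (chr2:65382761-65383363), an intronic region that is no annotated start. Its percentiles in BT474 were 70.6 and 69.5 at baseline, and in the controls 78.7 and 76.3 at 1 h, 64.7 and 65.4 at 12 h and 67.0 and 66.4 at 24 h. EGF gave 84.9 and 84.4, 75.1 and 76.3, and 77.7 and 77.7 at the same times, and HRG gave 83.7 and 83.5, 75.7 and 78.4, and 76.1 and 75.2. At each time every ligand library lay above both of its controls, although the 1 h controls overlapped the ligand libraries of later times. The difference over times was 9.60 points for EGF (SE 0.811, limma adjusted p = 6.01e-06) and 9.00 for HRG (SE 0.811, adjusted p = 7.49e-06), with calls at all 3 times for each ligand. With the summit p-value ranked in place of the score, EGF at 1 h (adjusted p = 0.1225), EGF at 24 h (0.152) and HRG at 1 h (0.0716) missed the threshold. EGF at 12 h (0.0398) and over times (0.00133) passed it. Without the second control at 1 h, the 1 h differences were 5.94 points for EGF and 4.91 for HRG, in place of 7.11 and 6.08.

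SPRED2 +54.8 (chr2:65377562-65378203) lies within 1 kb of the start of 1 of the 8 annotated SPRED2 transcripts. Its BT474 controls were 65.6 and 60.3 at 1 h, 59.1 and 61.7 at 12 h and 56.5 and 55.5 at 24 h, with 57.8 and 60.8 at baseline. EGF libraries were 76.8 and 75.8, 68.2 and 74.1, and 66.6 and 76.2, and HRG libraries 77.6 and 79.2, 72.8 and 70.0, and 65.0 and 68.5. Again every ligand library lay above its own controls. The difference over times was 13.2 points for EGF (SE 1.82, adjusted p = 0.000209) and 12.4 for HRG (SE 1.82, adjusted p = 0.000324).

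The neighbouring pair +65.9 (chr2:65366371-65367158) and +64.9 (chr2:65367493-65367973) lies at the start of 2 of the 8 transcripts. At +65.9 the 6 BT474 controls ran from 38.0 to 48.3 (median 43.9), EGF libraries from 54.5 to 63.1 (median 56.4) and HRG libraries from 48.6 to 64.5 (median 54.4), with no overlap between controls and either ligand. At +64.9 controls ran from 50.2 to 54.0 (median 52.7), EGF from 60.1 to 69.3 (median 66.5) and HRG from 60.0 to 66.9 (median 64.3), again with no overlap. EGF raised the pair by 13.8 (SE 2.12, adjusted p = 0.000457) and 13.6 points (SE 1.67, adjusted p = 9.15e-05), and HRG by 12.7 (adjusted p = 0.00085) and 11.2 (adjusted p = 0.000374). The other SPRED2 regions raised by both ligands over times were +117.6, +77.7, +44.4 and +36, by 5.97 to 15.5 points with EGF and 5.26 to 10.7 with HRG. EGF alone passed the test at +106.2 (16.9 points) and +122.3 (2.67 points), and no difference between the ligands was called at either. When ranks were taken among the tested regions only, +122.3 (2.40 points, adjusted p = 0.0796) and +36 (EGF 7.47 points, adjusted p = 0.054, and HRG 6.84 points, adjusted p = 0.0646) missed the threshold. On that scale the 15.5 points of EGF at +77.7 became 5.95 (adjusted p = 0.007) and stayed called. Its HRG difference at 12 h, 19.6 points, became 4.87 (adjusted p = 0.197).

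**Figure D2:**
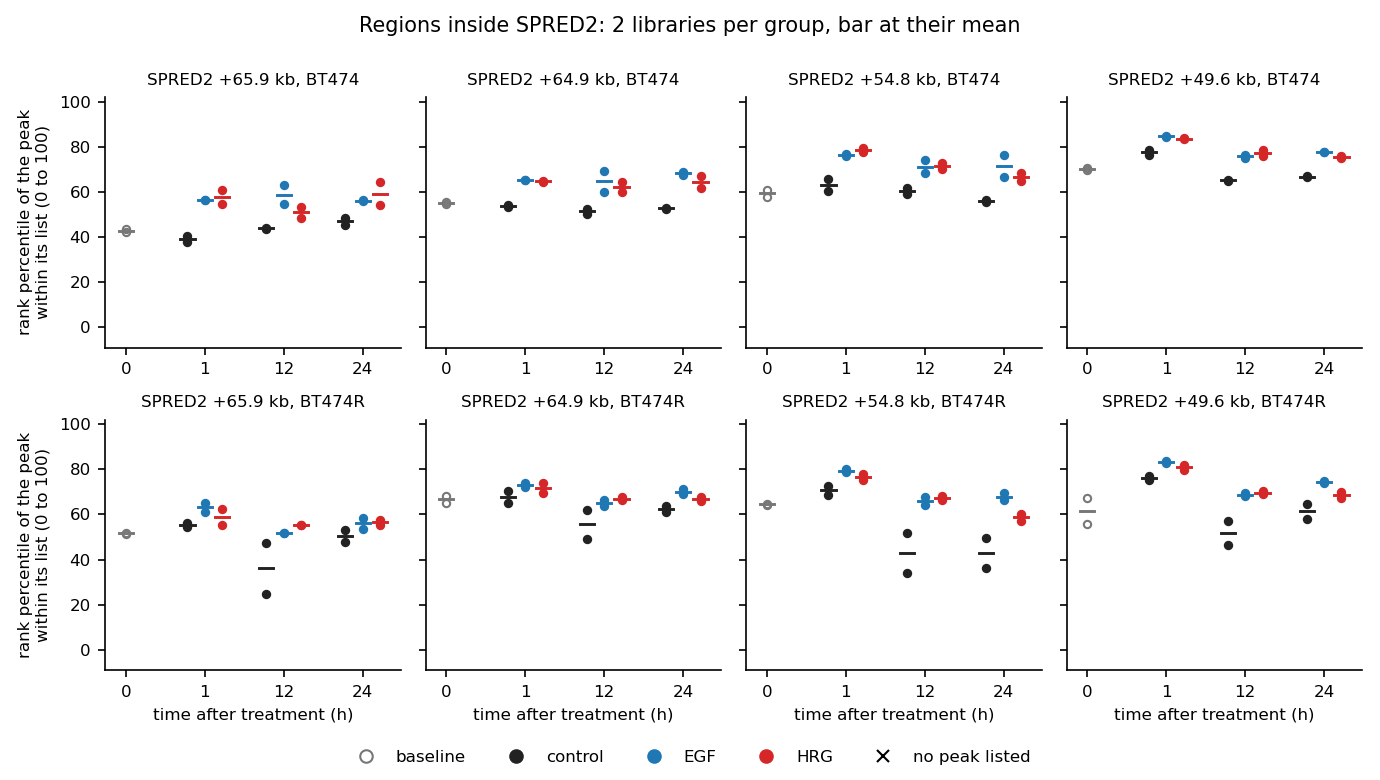
Rank percentile of 4 SPRED2 regions (+65.9, +64.9, +54.8 and +49.6 kb) against time in h, for BT474 and BT474R, with 1 point per library coloured by arm, open circles for baseline and a bar at each group mean. In BT474 the EGF and HRG points lie above the control points of the same time in all 4 regions, and in BT474R the control points drop at 12 h.

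1 intronic SPRED2 region went the other way. At +25.8 (chr2:65406498-65407118) BT474 controls at 1 h were 57.1 and 57.2 and HRG libraries 44.8 and 40.4, a fall of 14.6 points (SE 3.16, adjusted p = 0.0112, and 0.0833 without the second of those HRG libraries). The main promoter of SPRED2 (chr2:65430274-65433267) was not called in any ligand contrast in either line. Its 6 BT474 controls ran from 80.6 to 97.0 (median 96.1), its EGF libraries from 82.2 to 97.3 (median 96.2) and its HRG libraries from 80.1 to 97.4 (median 96.3). The authors' caller cut this promoter in different ways: in 16 of 20 BT474 libraries it was 1 peak (95.5 to 97.4) and in 4 it was split into several (80.1 to 82.7).

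SPRY1 and SPRY2 had 2 regions each, all of them testable but 1 SPRY1 region in BT474R, and none was called in a ligand contrast of either line. SPRY4, with 8 regions, was called at 2 of the 3 testable in BT474. SPRY4 +46.1 (chr5:142279922-142280857), which lies beyond the 3′ end of the gene, ran from 56.4 to 61.0 in BT474 controls (median 59.9), from 63.5 to 73.3 with EGF (median 65.3) and from 63.8 to 69.1 with HRG (median 67.3). Controls did not overlap either ligand, and the differences over times were 7.47 (SE 1.27, adjusted p = 0.000928) and 7.16 points (SE 1.27, adjusted p = 0.00129). At 1 h neither ligand was called there.

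The main SPRY4 promoter (chr5:142324055-142326880), which also holds the start of the antisense RNA gene SPRY4-AS1, was 78.4 and 76.8 in BT474 controls at 12 h and 95.4 and 93.6 with EGF, and 82.5 and 82.3 in controls at 24 h against 95.4 and 93.9 with HRG. EGF raised it by 16.9 points at 12 h (SE 3.28, adjusted p = 0.00698) and HRG by 12.3 at 24 h (SE 3.28, adjusted p = 0.0276). This promoter, too, was cut in different ways. It was 1 peak in 6 BT474 libraries (90.7 to 95.7) and several in 14 (76.8 to 86.7), and all 6 libraries with 1 peak were ligand libraries. When the scores of all its peaks were summed before ranking, the EGF difference over times was 6.79 points (adjusted p = 5.33e-06) in place of 9.86 (SE 1.89, adjusted p = 0.00226). When the summit p-value was ranked in place of the score it was -3.11 (adjusted p = 0.461). The HRG difference over times, 6.39 points (adjusted p = 0.0306), passed the test in 10 of the 20 fits that each left out 1 library and was -1.41 (adjusted p = 0.773) with the summit p-value ranked. The differences of 16.9 points at 12 h and 12.3 at 24 h became 0.787 (adjusted p = 0.948) and -0.716 (adjusted p = 0.934) on that scale.

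SPRED1 had 2 distal regions besides its promoter, and -35.6 had the higher mean percentile where listed (35.6 against 10.5). SPRED1 -35.6 (chr15:38216793-38217675) was 34.9 and 20.3 at baseline in BT474 and 27.2 to 38.1 in the 6 controls (median 35.7). EGF libraries were 37.9 and 39.2 at 1 h, 60.1 and 70.7 at 12 h and 67.8 and 49.5 at 24 h. HRG libraries were 41.0 and 42.7, 67.3 and 65.6, and 45.5 and 77.1. All ligand libraries at 12 and 24 h lay above all controls, with wide gaps between the 2 libraries at 24 h, and at 1 h the EGF values touched the range of the controls of other times. Over times EGF raised it by 20.1 points (SE 4.85, adjusted p = 0.0097) and HRG by 22.5 (SE 4.85, adjusted p = 0.00514). SPRED3, whose only promoter region it shares with GGN, was called at none of its own regions. The promoter of PSMD8, which lies within 50 kb of SPRED3, fell by 0.976 points with HRG (adjusted p = 0.0215), and differed by -0.0512 with the summit p-value ranked (adjusted p = 0.945).

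ERRFI1 +21.2 (chr1:8004753-8005386) was the only region of the 67 that a ligand separated by presence, that is, by the number of libraries with a peak. In BT474 it had a peak in 6 of 6 EGF libraries, in 6 of 6 HRG libraries and in 1 of 6 controls, and in neither baseline library. Where listed, its percentile was 5.29 in the control, 7.57 and 36.7 with EGF at 1 h, 21.0 and 21.5 at 12 h and 20.9 and 23.3 at 24 h, and 15.4 and 28.8, 46.8 and 27.5, and 18.5 and 18.6 with HRG. The two-sided exact Fisher test gave p = 0.0152 for each ligand against the same controls (adjusted p = 0.0796 for EGF and 0.0615 for HRG), so neither passed the adjustment. Of all 71600 regions, 1.15% were opened and 0.0433% closed by EGF at an unadjusted p below 0.05, and 1.33% and 0.311% by HRG. The 1 of 67 here is close to these shares of opened regions, so the count does not set these genes apart. In BT474R the region was listed in 6 of 6 libraries of each ligand and in 4 of 6 controls (exact Fisher p = 0.455). Those controls were 43.4 and 45.7 at 1 h, 1 of 2 libraries (19.2) at 12 h and 1 of 2 (8.66) at 24 h, while EGF libraries ran from 33.5 to 47.9 (median 44.8) and HRG libraries from 23.2 to 52.0 (median 38.5).

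ERRFI1 -14.4 (chr1:8040529-8040960), upstream of the gene, ran from 33.1 to 40.8 in BT474 controls (median 38.2), from 41.5 to 58.6 with EGF (median 49.6) and from 43.1 to 58.6 with HRG (median 46.4). The control and ligand ranges did not overlap. The differences over times were 11.8 points for EGF (SE 2.52, adjusted p = 0.00469) and 11.1 for HRG (SE 2.52, adjusted p = 0.00716). The main ERRFI1 promoter, shared with the divergent transcript ERRFI1-DT, moved the other way once. At 24 h it was 72.6 and 72.7 in controls and 62.6 and 60.5 with EGF, a fall of 11.1 points (SE 3.07, adjusted p = 0.0279, and 0.139 without the second EGF library at 24 h). HRG libraries at 24 h were 66.6 and 59.1 and were not called.

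LRIG1 regions fell early with HRG in BT474. LRIG1 +25.5 (chr3:66475154-66476332) was 66.1 and 61.8 at baseline, 61.1 and 59.7 in controls at 1 h, and 22.7 and 37.8 with HRG at 1 h, the 2 lowest of its 20 BT474 libraries. At 24 h the HRG libraries were 70.9 and 72.7, above the controls of 66.0 and 68.1. The fall at 1 h was 30.1 points (SE 4.64, adjusted p = 0.00165), and the contrast over times was -9.59 (adjusted p = 0.0231, and 0.0621 without the first HRG library at 12 h). HRG at 1 h also lowered +82.7 (chr3:66418401-66418809), at the start of 1 of the 9 LRIG1 transcripts, from 39.7 and 44.3 to 19.4 and 26.6 (by 19.0 points, SE 3.75, adjusted p = 0.00651). LRIG1 +8.3 fell by 24.7 points (SE 6.82, adjusted p = 0.0352). Without the first HRG library at 1 h the last 2 calls missed the threshold (adjusted p = 0.0785 and 0.272). EGF at 1 h differed from controls by -15.4 points at +25.5 (adjusted p = 0.0982), -7.85 at +82.7 (adjusted p = 0.32) and -19.1 at +8.3 (adjusted p = 0.164). The difference between the ligands at 1 h was not tested. The main LRIG1 promoter (chr3:66500090-66501662) stayed within 83.9 to 87.9 in all 20 BT474 libraries.

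**Figure D3:**
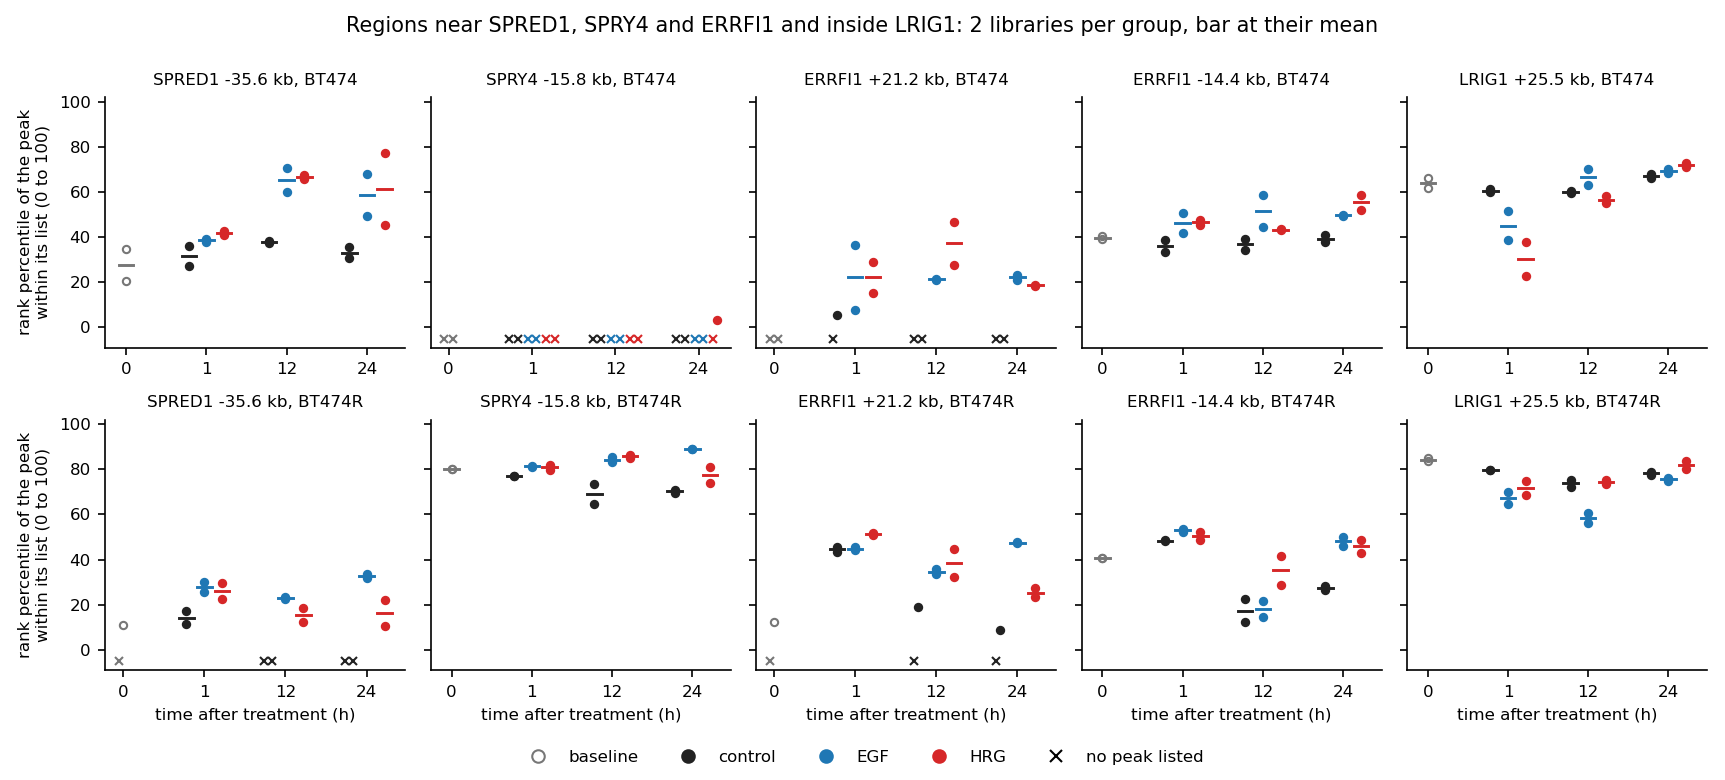
Rank percentile of 5 regions outside the main promoters (SPRED1 -35.6, SPRY4 -15.8, ERRFI1 +21.2, ERRFI1 -14.4 and LRIG1 +25.5 kb) against time in h, for both lines, with 1 point per library coloured by arm. A cross marks a library with no peak listed. SPRY4 -15.8 is crossed in 19 of 20 BT474 libraries, and LRIG1 +25.5 dips at 1 h with HRG in BT474.

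In BT474R both ligands raised more of these regions than they lowered, as they did over all regions. EGF raised 8 of 37 regions and lowered 2 over the times (27.0% called, background 14.2%), and HRG raised 7 and lowered 0 (18.9%, background 8.2%). Over all 28260 tested regions EGF raised 2770 and lowered 1236, and HRG raised 2309 and lowered 8. Of the 8 raised by EGF, 6 were at SPRED2 and 2 at SPRY4. HRG raised 4 at SPRED2, 2 at SPRY4 and 1 at ERRFI1. The median over the 37 regions was 4.32 points for EGF and 5.10 for HRG, beside -0.0668 and 2.32 over all regions. At 1 h limma called 0 regions for EGF (background 0.138%) and 0 for HRG (0.0%), with 2 of 37 at an unadjusted p below 0.05 for each. At 12 h EGF raised 6 and lowered 1 (8.16%) and HRG raised 10 (14.0%). At 24 h EGF raised 4 (9.02%) and HRG 0 (0.138%), with 8 at an unadjusted p below 0.05 for HRG. With the 12 h libraries left out, a choice made after seeing the data, limma called 3 regions over times for EGF (8.11%, background 3.4%) and 0 for HRG (background 0.0212%, 6 at an unadjusted p below 0.05). The medians over the 37 regions were then 3.93 and 3.60 points, beside -0.0862 and 0.753 over all regions.

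The 3 regions that EGF still changed without the 12 h libraries were SPRED2 +54.8, SPRY4 -15.8 and LRIG1 +25.5. SPRED2 +54.8 was 64.3 and 64.7 at baseline in BT474R, and in controls 72.6 and 68.7 at 1 h, 34.0 and 51.7 at 12 h and 36.2 and 49.4 at 24 h. EGF gave 78.8 and 80.0, 67.5 and 64.1, and 66.2 and 69.4, and HRG gave 75.3 and 78.1, 68.0 and 66.5, and 57.2 and 60.2. Controls fell below baseline at 12 and 24 h while EGF libraries stayed near it. The difference over times was 18.9 points for EGF (SE 2.95, adjusted p = 0.00103) and 15.4 for HRG (SE 2.95, adjusted p = 0.00874), and 16.9 for EGF without 12 h (adjusted p = 0.023). SPRED2 +49.6 rose by 12.3 points with EGF (adjusted p = 0.00332) and 10.0 with HRG (adjusted p = 0.0205). SPRED2 +131.4, downstream of the gene, ran from 17.6 to 59.0 in controls (median 29.8), from 36.0 to 59.5 with EGF (median 49.1) and from 48.0 to 61.5 with HRG (median 57.4), which overlapped, and rose by 13.4 (adjusted p = 0.0079) and 19.8 points (adjusted p = 0.00244).

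SPRY4 -15.8 (chr5:142341876-142342733) was open in BT474R in all 20 libraries. It was 79.9 and 80.3 at baseline, and in controls 76.9 and 76.9 at 1 h, 64.6 and 73.6 at 12 h and 69.5 and 71.0 at 24 h. EGF gave 81.3 and 81.2, 85.3 and 83.2, and 89.0 and 89.0, and HRG gave 79.9 and 81.8, 86.4 and 85.1, and 80.9 and 74.1. Every EGF library lay above all controls, and 1 HRG library at 24 h lay within their range. EGF raised it by 12.7 points over times (SE 1.54, adjusted p = 0.000214) and HRG by 9.27 (SE 1.54, adjusted p = 0.00459). SPRY4 -34.5 rose by 13.1 (adjusted p = 0.00545) and 11.8 points (adjusted p = 0.0189). The HRG call there was kept in 15 of 20 fits that each left out 1 library, and with ranks among the tested regions only it was 6.46 points (adjusted p = 0.254). The SPRY4 promoter in BT474R differed by 29.4 points at 12 h with EGF and missed the threshold (adjusted p = 0.06), and no main promoter of the 8 genes was called in any BT474R ligand contrast.

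LRIG1 +25.5 fell with EGF in BT474R. It was 83.7 and 84.8 at baseline, and in controls 79.8 and 79.9 at 1 h, 72.2 and 75.4 at 12 h and 77.6 and 78.9 at 24 h. EGF gave 69.9 and 64.7, 56.2 and 60.5, and 74.8 and 76.2, and HRG gave 68.7 and 74.9, 75.3 and 73.6, and 83.5 and 80.3. At each time both EGF libraries lay below both controls. The EGF difference over times was -10.2 points (SE 1.57, adjusted p = 0.000921). EGF was also lower than HRG, by a contrast added after seeing the data, with -8.99 points (SE 1.57, adjusted p = 0.0125). That contrast called 2 of 37 regions in BT474R (background 3.27%) and limma called 0 of 39 in BT474 (0.0815%), where 7 had an unadjusted p below 0.05. The other BT474R call was SPRED2 -39.4, at -16.2 points (SE 3.75, adjusted p = 0.0367). Its EGF libraries were 37.9 and 36.3 at 1 h, 2.06 and 1.08 at 12 h and 26.1 and 10.2 at 24 h, against HRG values of 38.5 and 42.6, 30.9 and 22.7, and 47.5 and 28.5. This call was kept in 6 of 20 fits that each left out 1 library, and was -2.54 (adjusted p = 0.584) when ranks were taken among the tested regions only.

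ERRFI1 -14.4 in BT474R rose by 12.8 points with HRG over times (SE 2.77, adjusted p = 0.0146) and by 20.4 with EGF at 24 h (SE 4.79, adjusted p = 0.0186). With ranks among the tested regions only, these were 5.73 points (adjusted p = 0.165) and 12.1 points (adjusted p = 0.0533), and neither was called. Its controls were 48.6 and 48.2 at 1 h, 12.3 and 22.4 at 12 h and 28.5 and 26.7 at 24 h, against 40.8 and 40.7 at baseline. Its 12 h EGF libraries, 14.4 and 21.7, lay between the 2 controls. SPRED1 -35.6 in BT474R had a peak in 6 of 6 libraries of each ligand and in 2 of 6 controls, both at 1 h (exact Fisher p = 0.0606 against the same controls). No region of the 67 was separated by presence in BT474R with either ligand by Fisher's exact test at an unadjusted p below 0.05. Over all regions 0.349% were opened and 0.0391% closed by EGF, and 0.207% and 0.0% by HRG. Numbers of libraries with a peak were also counted over pooled times, without a test and without the same counts over all regions. In BT474, 51 regions had equal numbers of control and EGF libraries with a peak, 13 had more with EGF and 3 fewer, and the counts for HRG were the same. In BT474R the counts were 46, 13 and 8 for EGF and 45, 19 and 3 for HRG. The BT474R controls at 12 h had short lists (32479 and 40331 peaks). These counts therefore cannot tell a gain at these genes from one over all regions.

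Controls were also compared with baseline, to show what time under starvation did without ligand. In BT474 limma called 0 of 39 regions at 1 h (background 0.076%), 12 h (0.117%) and 24 h (0.394%), with 3, 4 and 4 at an unadjusted p below 0.05. In BT474R it called 0 of 37 at 1 h (0.0955%, 2 at an unadjusted p below 0.05). At 12 h 17 regions were lower and 0 higher (45.9% called, background 32.3%), when the median over all regions was itself -8.45 points, and at 24 h 1 was lower (3.33%), SPRED2 +54.8 by 21.7 points (SE 5.10, adjusted p = 0.039). With ranks among the tested regions only, the 17 regions called at any time became 3.

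Whether a ligand acted differently in the resistant clone was tested directly in a fit of all 40 libraries, over the 32 regions of these genes open in each of them. For EGF limma called 0 (background 3.04%, 3 at an unadjusted p below 0.05). For HRG it called 1 (1.56%), SPRED2 +25.8, where the HRG effect was 12.3 points higher in BT474R than in BT474 (SE 3.16, adjusted p = 0.0478). That call was kept in 10 of 40 fits that each left out 1 library. No other ligand effect on these 32 regions was called different between lines, and the regions open in 1 line only, such as SPRY4 -15.8, could not enter this test.

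The lines were also compared over all arms and times. By presence in 20 against 20 libraries, 9 of the 67 regions (13.4%) were more often open in BT474R and 4 (5.97%) less often (exact Fisher test with adjusted p below 0.05), against 11.0% and 18.4% of all regions. SPRY4 -15.8 was listed in 20 BT474R libraries and in 1 of BT474, where its percentile was 3.18, and SPRY4 +44.3 in 14 and 1. SPRED2 -39.4 was listed in 20 and 0, and SPRED2 +139.9 in 19 and 0. In the other direction SPRED2 +132.2 was listed in 4 BT474R and 20 BT474 libraries and SPRED2 -20.1 in 1 and 18. LRIG1 +82.7, the region at an alternative LRIG1 start, was listed in 0 of 20 BT474R and 20 of 20 BT474 libraries (adjusted p = 4.18e-10). SPRED3 -5.1 was listed in 16 and 7, and SPRED3 +12.8 in 6 and 20. Along SPRED2, regions gained in BT474R lay on either side of each of the 2 that were lost.

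**Figure D4:**
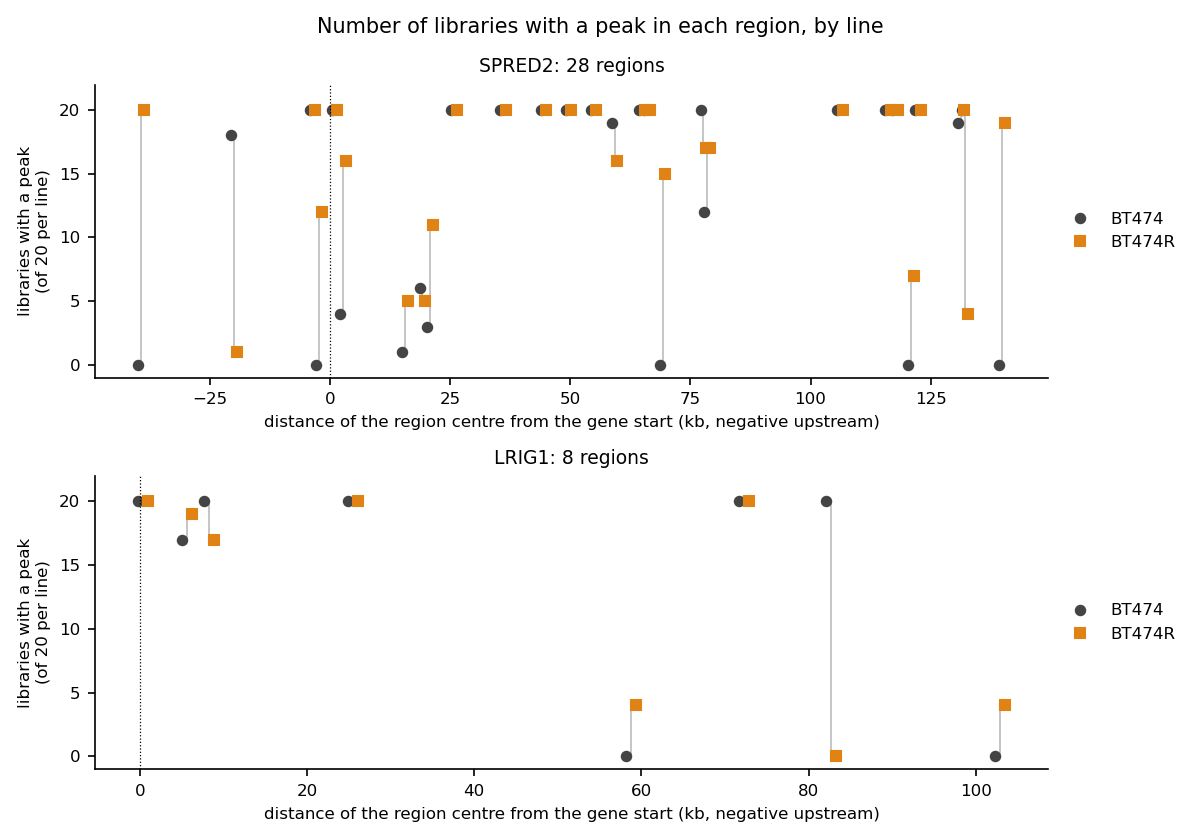
Number of libraries with a peak (0 to 20) in each of the 28 SPRED2 and 8 LRIG1 regions, by line, against distance from the 5′ end of the gene in kb. SPRED2 -39.4 and LRIG1 +82.7 show 20 libraries in 1 line and 0 in the other.

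By rank, 9 of the 32 regions open in all libraries were higher in BT474R and 16 lower (78.1% called), close to the 82.8% of all regions called in either direction, with a median of -1.55 points over the 32 and a median of -1.51 points over all. SPRY4 +46.1 was 14.0 points higher (SE 0.763, adjusted p = 5.28e-14), LRIG1 +25.5 15.5 higher (SE 1.22, adjusted p = 4.11e-11) and SPRY2 -1.8 11.7 higher (SE 1.23, adjusted p = 6.11e-09). SPRED2 +117.6 and +44.4 were 13.6 and 8.82 points higher, while SPRED2 +116.2 was lower (-8.07). ERRFI1 +50.9, downstream of the gene, was 18.4 points lower (-18.4, SE 1.18, adjusted p = 1.07e-12), and ERRFI1 -14.4 differed by -5.93. The median difference of other regions within 5 Mb, a sign of whether the whole segment moved, was -11 points around SPRY4, 2.36 around LRIG1, 2.55 around SPRY2, 0.442 around SPRED2 and -3.15 around ERRFI1.

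Most main promoters ranked lower in BT474R. Mean percentiles in BT474 and BT474R were 89.7 and 74.6 for SPRY1, 86.5 and 83.2 for SPRY2, 84.9 and 76.2 for SPRY4, 84.3 and 72.4 for SPRED1, 93.5 and 78.7 for SPRED2, 65.9 and 59.7 for ERRFI1 and 86.2 and 88.6 for LRIG1. All but SPRY2 (-3.28, adjusted p = 0.0882, and -3.41 with adjusted p = 9.36e-05 when the scores of its peaks were summed) were called. SPRED3 was listed in 18 of 20 BT474 libraries (mean 40.4) and in all of BT474R (67.1) and could not be tested. Splitting of peaks differed between the lines. The SPRED2 promoter was 1 peak in 16 BT474 and 3 BT474R libraries, SPRY1 in 9 and 4, SPRY4 in 6 and 4 and SPRY2 in 8 and 7, while the promoters of SPRED1, SPRED3, ERRFI1 and LRIG1 were always 1 peak. With summed scores the line difference was -3.77 points for SPRED2 in place of -14.7, -4.74 for SPRY1 in place of -15.1 and -0.0719 for SPRY4 (adjusted p = 0.938) in place of -8.64, beside a median of -1.70 over all regions. SPRED1 (-12.7, with -12.0 before), ERRFI1 (-6.56, with -6.19 before) and LRIG1 (2.17, with 2.36 before) changed little. Other regions within 5 Mb of SPRED1 had a median line difference of -5.81 points (quartiles -12.4 and -2.01). The SPRED1 difference before summing, -12.0, lay within those quartiles. Around SPRY1 the median was -3.5 points (quartiles -6.45 and -0.789). With ranks among the tested regions only, the ERRFI1 difference was -3.89 (adjusted p = 0.104).

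**Figure D5:**
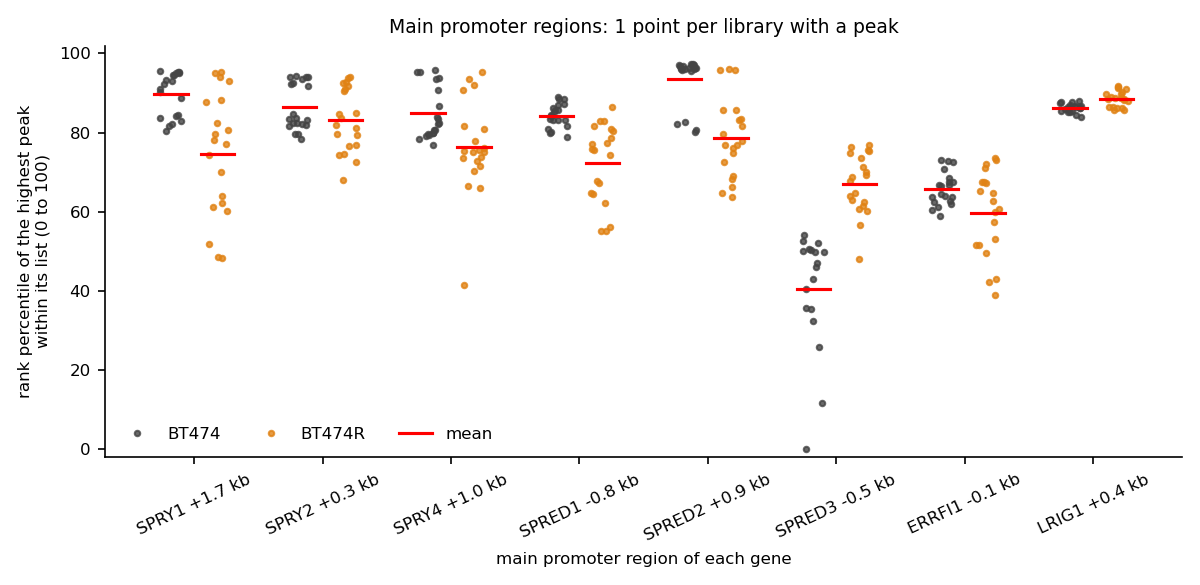
Rank percentile of the main promoter of each of the 8 genes in BT474 and BT474R, with 1 point per library and a bar at the mean. For SPRED2, SPRY1, SPRY2 and SPRY4 the uppermost points are the libraries in which the promoter was 1 peak.

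Promoters of 39 other genes on the route from receptor to ERK gave the setting (adaptors, RAS and its regulators, RAF, MEK, ERK, CBL, SOCS and other LRIG genes). All 39 had a promoter region, 37 could be tested in BT474 and 33 in BT474R. In BT474, EGF over times lowered 1 and raised 0 (2.7% called, against 18.8% of all regions), with a median of -0.21 points beside 0.878 over all regions, and HRG also lowered 1. That gene was SOCS3, a feedback inhibitor of cytokine signalling (-3.10 with EGF, adjusted p = 0.0192, and -3.70 with HRG, adjusted p = 0.00718). At 24 h EGF lowered SOCS2 (-33.3 points), MAP2K1 (MEK1, -5.33) and SOCS3 (-5.57) and raised the adaptor GRB2 (1.87), and HRG lowered NRAS (-22.6), the adaptor FRS2 (-9.61) and SOCS3 (-6.89). Those 24 h calls were 10.8% of the 37 with EGF and 8.11% with HRG, against 14.7% and 12.0% of all regions. In BT474R limma called 0 of 33 in every ligand contrast. Over times 14.2% of all regions were called there with EGF and 8.2% with HRG, and 0.0% to 14.0% at single times. The list of 39 genes counts main promoters only, while the shares cover regions of every kind. Most tested regions of the 8 genes also lie away from their main promoters. Of the main promoters of the 8 genes, limma called 1 of 7 over times with each ligand in BT474, against 18.8% and 18.7% of all regions. That was SPRY4, whose difference turned with the summit p-value ranked. In BT474R it called 0 of 8, beside the same shares of all regions as above. Between the lines 10 were higher in BT474R and 18 lower of 33 (84.8% called, close to the 82.8% of all regions). The largest differences were SOCS3 (-23.5 points) and FRS2 (-23.0) among the lower and CBLC (13.35) among the higher. NF1, the partner of SPRED proteins, was at -19.0 points (SE 1.33, adjusted p = 4.61e-12). These values rank the highest peak, and summed scores were not compared for them.

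The promoters whose percentile ran most like those of the 8 genes over the 40 libraries were sought among 11217 protein-coding genes, other chromosomes only. The closest by Pearson's r were ZNF784 (0.936) and NUP205 (0.924) for SPRED1, BAG1 and CHMP5 (0.911 each) for SPRED2, ARHGAP12 (0.895) and FUBP3 (0.878) for ERRFI1, TGS1 and TMEM68 (0.877 each, 1 shared region) for SPRY1, DNAJC3 (0.861) and SUV39H1 (0.827) for LRIG1, NKD2 (0.815) and OTULIN (0.799) for SPRY2, and VEZF1 (0.784) and UPP1 (0.782) for SPRY4. The 40 points share line and list length, so these values are a description.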

How the data were processed

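ATAC-seq was done on 40 libraries of BT474 and BT474R. Per the labels and the study's methods, the authors trimmed reads with Trim Galore 0.6.6, mapped them with BBMap to hg38 (GRCh38.p13) removed mitochondrial reads and blacklisted regions and called peaks with Genrich in each library, not on pooled libraries. Its options are not stated there. The authors deposited, for each peak, a score (the area of signal under the peak, lowest 200) and the −log10 p at its summit. Reads per library are not in these lists.

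Here, peaks were merged, ranked within each list and tested as described in the text with limma 3.58.1 (trend, group means of line, arm and time) in R 4.3.3. Presence was tested by Fisher's exact test in scipy 1.17.1 (Python 3.11.15), 6 against 6 libraries with the 3 times pooled. Genes and sequences came from GENCODE v44 and hg38. Region tests were checked on simulated data, drawn independently around each region's mean or its share of libraries with a peak. Short lists and split peaks were not simulated, so that check does not cover them. The labels do not say whether the 2 libraries of a group came from separate cultures, so p-values measure the spread between these libraries, which may be technical. No 2 lists were alike (at most 91.2% of regions shared), and every library counted once. Alternatives changed the score minimum, number and width of peaks, overlap, window, rank scale, variance model and replicate block, and left out each library.

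Regions named in the text were each gene's main promoter (the one with the highest mean percentile) and strongest distal region, up to 3 called regions per gene and comparison by smallest p, and for the lines 2 per gene and direction. The 8 genes, the marker and pathway lists and the tests were chosen with earlier results of these data known.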

Additional observations from a re-analysis of the deposited data

Results flagged for a closer look

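The HRG effect on SPRED2 +25.8, an intronic region at chr2:65406498-65407118, differed between the lines by the test of the difference itself. In BT474 its HRG libraries at 1 h (44.8 and 40.4) lay below the controls of the same time (57.1 and 57.2). In BT474R its HRG libraries at 12 h (53.0 and 57.1) lay above the controls (31.3 and 44.1), whose lists held 32479 and 40331 peaks. The HRG effect averaged over times was 12.3 percentile points higher in BT474R than in BT474 (SE 3.16, limma adjusted p = 0.0478), was 9.13 points (adjusted p = 0.275) when ranks were taken among the tested regions only, and passed the test in 10 of 40 fits that each left out 1 library. Leaving out the first BT474R control at 24 h gave the highest adjusted p, 0.11. With equal numbers of top peaks taken from each list it was 12.0 points (adjusted p = 0.162), and limma called 0 of 26 regions, with 5 at an unadjusted p below 0.05 for HRG. With 2 libraries per group, no group was large enough to look for a library far from the others.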

How the results depend on the processing

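Values were recomputed under 1 changed choice at a time, the −log10 p ranks, the EGF against HRG contrast and the omission of 12 h having been chosen after seeing the data. ERRFI1 +21.2, the 1 region separated by presence in BT474, was lost for EGF and HRG (0 each) with equal numbers of top peaks, with at least 50% of the region covered, under the replicate block (an exact McNemar test over 6 pairs, which cannot reach p = 0.05 when 5 of them differ) and without 12 h, and for HRG (0) at a score of at least 400. In BT474R, equal numbers of peaks gave 1 for EGF (less often with ligand) in place of 0. A window of 100 kb gave 2 for HRG in BT474, and 2 for EGF and 1 for HRG in BT474R. The line comparison by presence gave 7 with 10 kb and 21 with 100 kb in place of 13, and by rank 42 with 100 kb in place of 25. Windows change the number of regions counted.

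Counts of regions called by rank moved as follows. For EGF in BT474, 14 over times became 9 with equal numbers of peaks and 9 without 12 h, and 10 at any single time became 17 with 100 kb. For EGF in BT474R, 10 over times became 3 without 12 h, and 8 by time became 5 with 10 kb and 4 without 12 h. For HRG in BT474R, 7 over times became 4 with ranks among the tested regions only, 4 with equal numbers of peaks, 4 with 10 kb and 0 without 12 h, and 10 by time became 2, 1 and 0 with the tested ranks, equal numbers and no 12 h. EGF against HRG in BT474R, 2, became 1 with −log10 p ranks and 1 with 10 kb. The interaction, 1, became 0 with logit ranks, with regions open in at least 75% of the libraries, with equal numbers of peaks, with the replicate block and with −log10 p ranks, and 2 with summed scores and with 100 kb. Control against baseline, 17, became 3 with tested ranks, 3 with equal numbers and 27 with 100 kb. The cause of these changes was not tested.

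Leaving out 1 library at a time gave 1 to 2 regions by presence for EGF and 1 to 3 for HRG in BT474, 0 to 1 and 0 to 2 in BT474R and 13 to 14 between lines. By rank over times it gave 13 to 16 for EGF and 10 to 14 for HRG in BT474, and 7 to 16 and 3 to 16 in BT474R. By time it gave 6 to 17 and 10 to 18 in BT474, and 4 to 19 and 2 to 18 in BT474R. The line comparison gave 23 to 27, control against baseline 4 to 26, the interaction 0 to 2, and EGF against HRG 0 to 1 in BT474 and 0 to 3 in BT474R. A lone library left in a group was assumed to vary like the other groups. In every such fit 22 of 28 calls over times and 8 of 39 calls at single times stayed called in BT474, and 10 of 17 and 3 of 21 in BT474R.

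For the region with the smallest p of each gene, ligand and line over times, 226 of 248 alternatives kept direction and side of the threshold. The direction turned in 13 of the 248, with no call in either setting. These were, for EGF in BT474, the LRIG1 promoter with −log10 p ranks (-1.17) and the SPRY1 promoter with summed scores (0.0665). For EGF in BT474R they were the SPRED1 promoter with tested ranks (-0.482) and equal numbers (-0.495), the SPRY1 promoter with summed scores (-0.277) and −log10 p ranks (-0.596) and the SPRY2 promoter with summed scores (0.96). For HRG in BT474R they were, with tested ranks and equal numbers, LRIG1 +72.3 (-1.16 and -1.62), the SPRED3 promoter (-3.91 and -3.60) and SPRY2 -1.8 (-0.553 and -0.371).

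Of the 28 called ligand differences over times in BT474 and the 17 in BT474R, 4 and 3 were no longer called with tested ranks, 8 and 3 with −log10 p ranks, and none with summed scores. Among the 39 and 21 called at single times, 9 and 11 were lost with tested ranks and 19 and 4 with −log10 p ranks. Of all these, the direction turned only at the SPRY4 promoter in BT474 with −log10 p ranks (EGF and HRG over times and HRG at 24 h, values in the text above).

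The labels number the replicates, but same-numbered libraries deviated together only weakly (correlations from -0.0768 to 0.2 with their controls), so the numbers were not taken to pair the libraries. The replicate block moved no other count by more than 1.5 times. Peak lists give no read depth, so weak peaks below the score minimum of 200 cannot be told from closed chromatin.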
